A study of Mus musculus with 6 samples.

Results

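Serine proteases that act outside the cell or at its surface, together with their Kunitz and Kazal inhibitors, were examined in the uterus of mice with and without a conditional deletion of *Foxo1*. Members were matched by gene symbol, under a rule set with earlier results of these data known. The rule takes the numbered *Prss*, *Klk*, *Tmprss*, *Pcsk*, *Htra*, *Mcpt*, *Spint* and *Spink* genes, *Hpn* and *St14*. It also takes the mast cell genes *Tpsab1*, *Tpsb2*, *Tpsg1*, *Cma1* and *Cma2*. The symbols matched 119 of the 23420 genes in the table.

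The study asked which uterine transcripts depend on the forkhead transcription factor FOXO1 around the time the embryo implants. RNA-seq compared uteri of control *Foxo1f/f* females with those of PgrCre/+ *Foxo1f/f* (*Foxo1d/d*) females. All were C57BL/6J mice aged 8 weeks, mated to vasectomized males and taken on pseudopregnancy day (PPD) 4.5, so no embryo was present. Each library held the RNA of 2 females, with 3 libraries per genotype. Both genotypes carried the floxed *Foxo1* alleles. The controls had no Cre, while in the *Foxo1d/d* females Cre was expressed from the *Pgr* locus. That driver deletes in the PGR-expressing epithelium and stroma of the uterus from birth, and also in the pituitary and in granulosa cells of the ovary.

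The values are the authors' mean raw counts of each genotype over its libraries, which added up over all genes to 26125014 in *Foxo1f/f* against 27257963 in *Foxo1d/d*. Counts of single libraries were not analysed here, so no spread between pools, no test and no replicate check is given for any difference. Mean counts were raised by a pseudocount of 1 and scaled by the genotype's total, and log2 ratios give *Foxo1d/d* over *Foxo1f/f*. Genes were counted where the mean count across the genotypes reached 10, which left 15702 genes. Levels are given in CPM, the count out of 1000000 counts of the genotype, and levels of different members are compared per kilobase of exon. The most abundant gene of a list or marker set is the one with the highest mean count in *Foxo1f/f*, without regard to length. The folds of single genes were computed without the pseudocount and carry a 95% exact interval from the summed counts, which covers counting error only. In bulk tissue, fewer cells of a type and less RNA per cell cannot be told apart.

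Trypsin-like serine proteases are made as inactive zymogens and cut proteins after arginine or lysine once activated. Kunitz and Kazal inhibitors occupy the active site and hold such enzymes in check. In the mouse uterus the best known are the implantation serine proteinases ISP1 and ISP2, encoded by *Prss28* and *Prss29*, which the endometrial glands secrete around implantation. On epithelial surfaces the membrane protease matriptase (*St14*) and its partner prostasin (*Prss8*) are controlled by the Kunitz inhibitors HAI-1 (*Spint1*) and HAI-2 (*Spint2*).

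*Foxo1*, the deleted gene, had a mean count in *Foxo1f/f* of 3941 against 1456 in *Foxo1d/d*, and its log2 ratio was -1.50, with -1.55 to -1.45 as the counting interval. The direction was that of the labels. The count covers the whole gene, including exons outside the deleted one. The tissue was checked by its markers. The stromal genes *Hand2*, *Hoxa10* and *Hoxa11* and the myometrial gene *Myh11* were abundant in both genotypes, with *Hoxa11* at a mean count of 7606 and 7713 and *Myh11* at 60677 and 46984 in *Foxo1f/f* and *Foxo1d/d*. The 7 stromal markers had a median log2 ratio of -0.11, the 5 myometrial markers -0.34 and the 4 endothelial markers -0.22. The 8 pan-epithelial markers had a median of 0.26, and the 3 oviduct markers 0.17.

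Of the 119 members, 26 had no count in either genotype and 42 reached the minimum, so that 77 are not part of the counts below. A gene that is high in 1 genotype can reach the minimum through that genotype alone. Of the 42, 8 (19.0%) were at least 2-fold lower in *Foxo1d/d*, against 1.40% of all genes counted, and 2 (4.76%) were at least 2-fold higher, against 2.01% of all genes counted. At 1.5-fold, 12 members were lower and 8 higher, against 3.51% and 5.45% of all genes, and the other 22 members lay between. The median log2 ratio of the 42 was -0.18, against 0.02 over all genes counted. The large differences were therefore few, and most of them were on the lower side. Because the members were chosen with earlier results known, these shares are descriptive and enrichment was not tested. Those at least 2-fold lower were *Prss28*, *Prss35*, *Spink3*, *Prss29*, *Tmprss13*, *Pcsk6*, *Prss12* and *Tmprss4*, and those at least 2-fold higher were *Tmprss11a* and *Tmprss11g*.

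**Figure D1:**
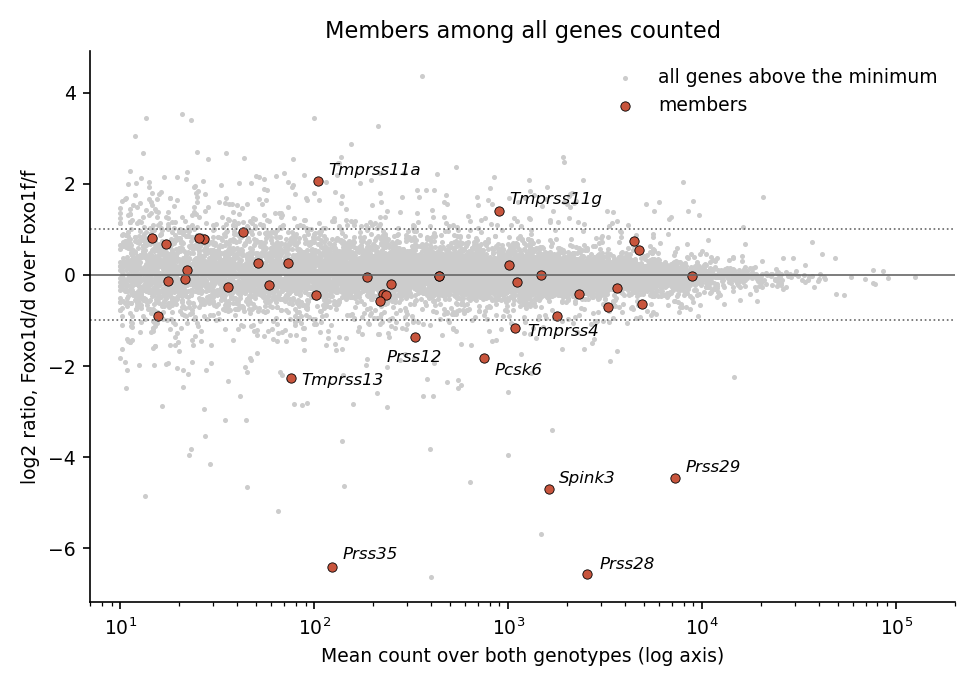
Log2 ratio, Foxo1d/d to Foxo1f/f with a pseudocount of 1, against the mean count over both genotypes (log axis) for the 15702 genes counted, with the 42 members in red. The dotted lines mark 2-fold, and the 8 members below and 2 above them are named.

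The implantation serine proteinases had the largest differences in amount among the members. The mean count of *Prss29* was 13746 in *Foxo1f/f* against 652 in *Foxo1d/d*, 22.0-fold lower (counting interval 21.0 to 23.0). *Prss28* had a mean count in *Foxo1f/f* of 5046 against 55 in *Foxo1d/d*, 95.7-fold lower (82.1 to 112). Both genes were still detected in *Foxo1d/d*, and the counting intervals of the folds did not overlap. Per kilobase of exon, *Prss29* stood at 446 CPM in *Foxo1f/f*, which placed it 53rd among the 22616 genes with a length, and at 20.3 in *Foxo1d/d*, in place 4339. *Prss28* stood at 159 and 1.66 CPM per kilobase. In *Foxo1f/f*, *Prss29*, *Spink3* and *Prss28* held the top 3 levels among the members on that scale.

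*Prss28* and *Prss29* are paralogs that lie side by side on chromosome 17, with a gap of 6.78 kb between them. Reads could in principle be assigned to the wrong copy. Over the aligned bases of their longest coding transcripts, 68.7% were identical, and the longest run of letters they shared was 27 bases. No stretch of 90 bases, the length of the trimmed reads, was common to both transcripts. Within 100 kb of *Prss28*, and leaving out *Prss29*, 7 other genes counted there had log2 ratios between -0.57 and 0.05. These include the tryptase genes *Tpsab1* and *Tpsb2*, at -0.44 and -0.57. The nearest gene outside the pair, the protease gene *Prss34*, had a mean count in *Foxo1f/f* of 3 against 1.33 in *Foxo1d/d*, under the minimum. None of the 7 neighbours was past 2-fold.

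The promoter windows of both genes are shown because the genes moved together. They come from RefSeq and run from 250 bases before to 50 after the start of the gene, at chr17:25308396-25308695 for *Prss28* and chr17:25318404-25318703 for *Prss29*, both on the plus strand of GRCm38.p6. That is the assembly behind mm10, which the study's methods name, while the submitters' processing notes name mm9. The deposited table has no coordinates of its own. Capitals mark runs of at least 10 letters that occur in both windows.
Prss28: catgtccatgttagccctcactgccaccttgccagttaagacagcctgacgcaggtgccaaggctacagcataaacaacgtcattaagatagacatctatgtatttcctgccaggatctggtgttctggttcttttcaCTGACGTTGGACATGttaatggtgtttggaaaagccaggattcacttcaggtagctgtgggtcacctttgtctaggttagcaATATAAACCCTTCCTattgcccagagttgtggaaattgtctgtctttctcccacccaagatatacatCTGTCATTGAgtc
Prss29: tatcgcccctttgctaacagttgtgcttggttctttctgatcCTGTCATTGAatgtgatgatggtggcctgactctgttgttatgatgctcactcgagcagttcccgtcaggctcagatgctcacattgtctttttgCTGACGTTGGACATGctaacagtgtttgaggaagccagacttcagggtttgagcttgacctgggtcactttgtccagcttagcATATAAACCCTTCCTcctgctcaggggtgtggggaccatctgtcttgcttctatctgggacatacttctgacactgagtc
The windows share 3 such runs. One of 15 letters begins 112 bases before the start in *Prss28* and 113 bases before it in *Prss29*, and another of 15 letters begins 30 bases before the start in both. The second holds the letters TATAAA, which is the usual form of the TATA box. The third has 10 letters and lies at different places in the windows. Aligned end to end, the windows had 195 identical letters, against a median of 154 over the 351 pairs of the 27 counted members with a promoter window, and no other pair shared a run of 15 letters.

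The forkhead core GTAAACA, searched on both strands and also read by FOXA factors, was in neither window. It was in 0 of the windows of the 27 counted members and in 3.65% of all 32851 windows. Other forms of the forkhead site were not searched. The *Prss28* window holds ATAAACA, which differs from the searched core in its first letter. No window was available for 15 counted members, among them the lower genes *Spink3*, *Tmprss4* and *Tmprss13*. The steroid receptor half-site AGAACA, on both strands, was in the windows of *Prss28*, *Prss33*, *Pcsk5* and *Tmprss9*, 14.8% of the 27, and in 19.0% of all windows. TATAAA, searched on both strands and chosen after these windows were seen, was in those of *Prss28*, *Prss29* and *Mcpt4*, 11.1% of the 27, and in 13.6% of all windows. The search covers these windows only and says nothing of sites elsewhere.

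Because *Prss28* and *Prss29* are made by the glands, markers of that compartment were read beside them. Of 4 gland markers outside the protease rule, 3 were found and counted, and none of the 3 was lower by 1.5-fold. *Foxa2*, the transcription factor of the gland epithelium, had a mean count in *Foxo1f/f* of 280 against 299.7 in *Foxo1d/d*, a log2 ratio of 0.04. *Sox17* had a log2 ratio of 0.54 and *Lif*, the cytokine required for implantation, 0.99. The summed level of the 3 was 177 CPM in *Foxo1f/f* against 271 in *Foxo1d/d*. Most of it came from *Sox17*, the most abundant, at 134 and 195 CPM. The paper reports a delayed induction of *Lif* in pregnant *Foxo1d/d* females. The sum is therefore no measure of the amount of gland. The 6 luminal markers had a summed level of 174 and 320 CPM, with *Krt7* the most abundant in *Foxo1f/f*, and *Calb1* at a log2 ratio of 2.07. None of these gland or luminal markers was at 0, and their part in the results for the proteases was not tested.

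**Figure D2:**
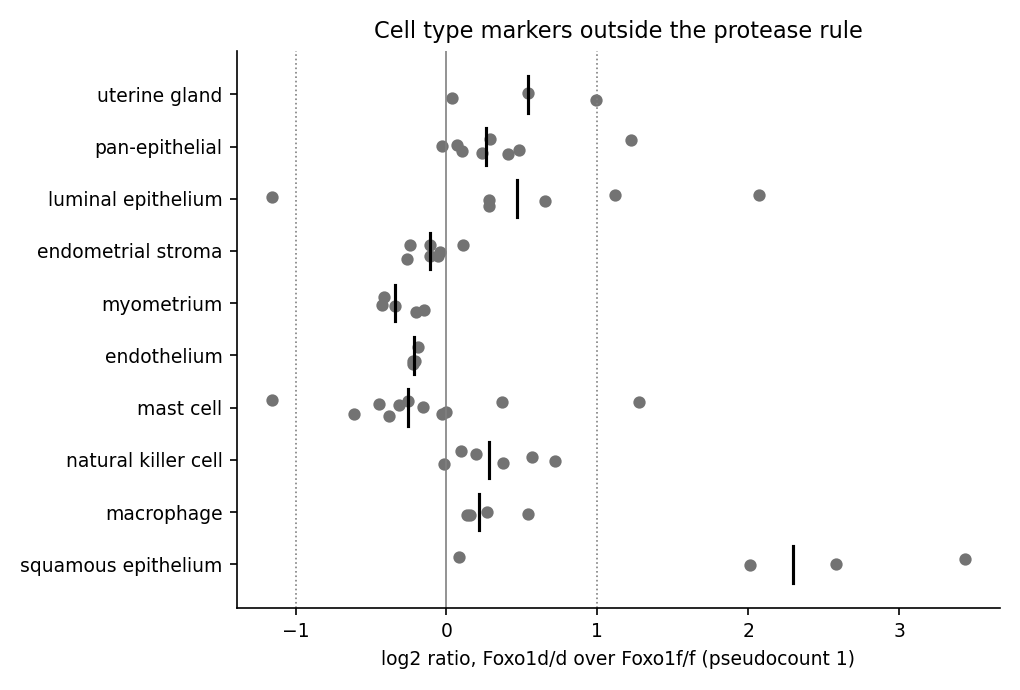
Log2 ratios of cell type markers outside the protease rule (points, mean count of at least 10), with the median of each list as a black bar and 2-fold as dotted lines. The gland markers lie at 0.04, 0.54 and 0.99, and 3 of the 4 squamous markers lie above 2-fold.

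*Prss35*, a secreted relative of *Prss23* first described in the ovary, had a similarly large fold from a lower level. Its mean count was 245 in *Foxo1f/f* against 2 in *Foxo1d/d*, the latter from 6 counts over the group. It was 128-fold lower, with a wide counting interval of 58.4 to 349. The 2 other genes counted within 100 kb of *Prss35* were also lower, *Me1* at -0.86 and *Snap91* at -0.35. *Prss23* itself had a mean count in *Foxo1f/f* of 3734 against 5677 in *Foxo1d/d*, a log2 ratio of 0.54. The relatives thus differed in opposite directions. Exons of *Prss23os* overlap 25.4% of the exon bases of *Prss23*, and since counting by strand is not stated, reads from the pair cannot be told apart. *Prss12*, which encodes neurotrypsin, a protease that cleaves agrin, had mean counts of 472 and 190, 2.59-fold lower (2.35 to 2.86). Within 100 kb of *Prss12*, the 4 other genes counted lay between -0.01 and 0.16.

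The remaining *Prss* genes showed smaller differences. Of the 38 *Prss* genes, 13 were counted and 9 had no count in either genotype, and 8 of the 13 lay within 1.5-fold. Prostasin (*Prss8*) had a mean count in *Foxo1f/f* of 1139 against 1065 in *Foxo1d/d*, and *Prss36* of 431 and 445. *Prss33* was the only *Prss* gene counted that was higher by 1.5-fold, with mean counts of 10 and 19, 1.82-fold higher (1.15 to 2.94). Summed over all 38, the *Prss* genes held 966 CPM in *Foxo1f/f* against 311 in *Foxo1d/d*.

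**Figure D3:**
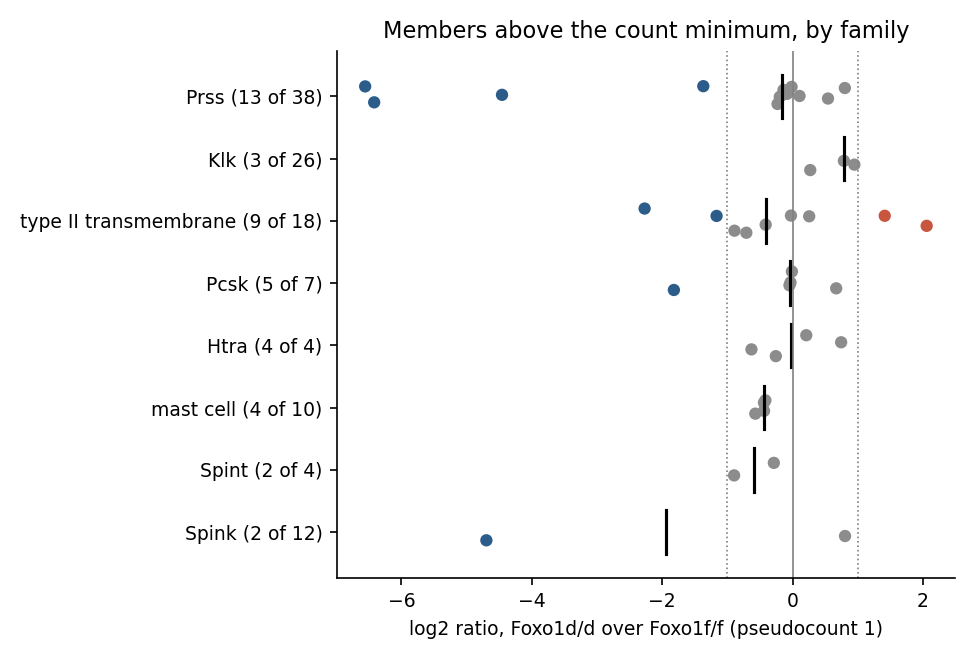
Log2 ratios (pseudocount 1) of the 42 members counted, by family, with the number counted of all members in parentheses. Blue points are at least 2-fold lower and red points at least 2-fold higher in Foxo1d/d, black bars are medians and dotted lines mark 2-fold.

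Among the Kazal inhibitors, *Spink3* (*Spink1* in current nomenclature), a trypsin inhibitor best known from the exocrine pancreas, was among the most abundant members. The gene was also on the list of uterine gland markers, together with *Prss28* and *Prss29*. It had a mean count in *Foxo1f/f* of 3104 against 124 in *Foxo1d/d*, 26.1-fold lower (23.5 to 29.1). Per kilobase its level was 163 CPM in *Foxo1f/f* against 6.24 in *Foxo1d/d*. *Spink3* was thus close to *Prss28* in level in the controls and to *Prss29* in fold. Of 7 markers of exocrine pancreas, *Amy2a5* was at 0 in both genotypes and *Pnlip* had mean counts of 2 and 1.67. Their summed level was 13.6 and 12.1 CPM, mostly from *Cela1*, which had a log2 ratio of -0.05. The median log2 ratio of the 3 counted was -0.55, with *Cpb1* at -0.75, and the part of pancreatic tissue in the result for *Spink3* was not tested. The other Kazal gene counted was *Spink8*, with mean counts of 17.7 and 33, 1.79-fold higher (1.27 to 2.55). The remaining 10 of the 12 Kazal genes were under the minimum, 4 of them with no count.

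The Kunitz inhibitors differed less. *Spint1* had a mean count in *Foxo1f/f* of 2282 against 1278 in *Foxo1d/d*, 1.86-fold lower (1.79 to 1.94). *Spint2*, next after *Prss28* in level per kilobase among the members in *Foxo1f/f*, had mean counts of 3915 and 3346, 1.22-fold lower (1.19 to 1.25). Their target matriptase (*St14*) had mean counts of 2588 and 2028 (log2 ratio -0.41). The inhibitors and proteases of this system that were counted were thus all on the lower side, with *Spint1* the furthest, and prostasin at -0.16. *Spint3* and *Spint4* were under the minimum.

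Among 19 substrates and partners of matriptase and prostasin, all counted, 2 were at least 2-fold lower and 0 at least 2-fold higher, and the median log2 ratio was 0.04. One of the lower genes was *Scnn1g*, the gamma subunit of the epithelial sodium channel, with mean counts of 20.7 and 9.33 (log2 ratio -1.13). The beta subunit gene *Scnn1b* went the other way, from 183 to 316 (0.72), and the alpha subunit gene *Scnn1a* had 207 and 271 (0.33). The subunits of this protease-activated channel therefore did not share a direction. *Epcam*, a matriptase substrate, had a log2 ratio of 0.07, and *F2rl1*, the gene of the protease-activated receptor PAR2, -0.05.

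The type II transmembrane serine proteases, which are anchored in the cell membrane with the catalytic domain outside, contained differences in both directions. Of 18 genes, 9 were counted, 2 were at least 2-fold lower and 2 at least 2-fold higher. *Tmprss13* had a mean count in *Foxo1f/f* of 125 against 26.3 in *Foxo1d/d*, 4.97-fold lower (3.89 to 6.41). *Tmprss4* had mean counts of 1472 and 684, 2.25-fold lower (2.13 to 2.37), and 18.0% of its exon bases overlap those of the predicted gene Gm17099. *Tmprss13* and *Tmprss4* lie on chromosome 9 with 115 kb between them, and *Il10ra*, the interleukin 10 receptor gene located between them, had a log2 ratio of 0.32. *Scn4b*, on the other side of *Tmprss4* and 18.6 kb from it, was lower, at -0.87, and the 5 genes counted within 100 kb of *Tmprss4* lay between that value and 0.55. *Tmprss2*, known for its androgen response in prostate and for cleaving viral spike proteins, had mean counts of 3974 and 2535, 1.64-fold lower (1.59 to 1.68). *Tmprss9* was 1.93-fold lower (1.24 to 3.04) at mean counts of 20.3 and 11. Hepsin (*Hpn*) had 431 and 442, and the hepatic regulator of hepcidin *Tmprss6* had 45.3 and 56.7.

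The genes on the higher side belong to the *Tmprss11* cluster of chromosome 5, whose members are mostly expressed in stratified epithelia. *Tmprss11g* had a mean count in *Foxo1f/f* of 472 against 1314 in *Foxo1d/d*, 2.67-fold higher (2.51 to 2.84). *Tmprss11a* had mean counts of 38.3 and 169.7, 4.24-fold higher (3.46 to 5.24). The cluster did not move as a block. *Tmprss11d* had mean counts of 8.67 and 3 and *Tmprss11e* of 9.67 and 4, both lower and both under the minimum, and these were named after their values were seen. Markers of squamous epithelium, the type that lines cervix and vagina, had a summed level of 6.34 CPM in *Foxo1f/f* against 22.0 in *Foxo1d/d* over 7 genes. The study's methods for RNA isolation, worded for mice after surgery, say that the cervix was discarded. Of the 4 counted, 3 were at least 2-fold higher, namely the basal keratin genes *Krt5* (mean counts 37 and 236), *Krt14* (15 and 66.3) and *Krt15* (15.3 and 184). *Trp63*, the most abundant in *Foxo1f/f*, had 90.3 and 100, and *Sprr3* was at 0 in both genotypes. The part of these keratin-expressing cells in the result for *Tmprss11a* and *Tmprss11g* was not tested.

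**Figure D4:**
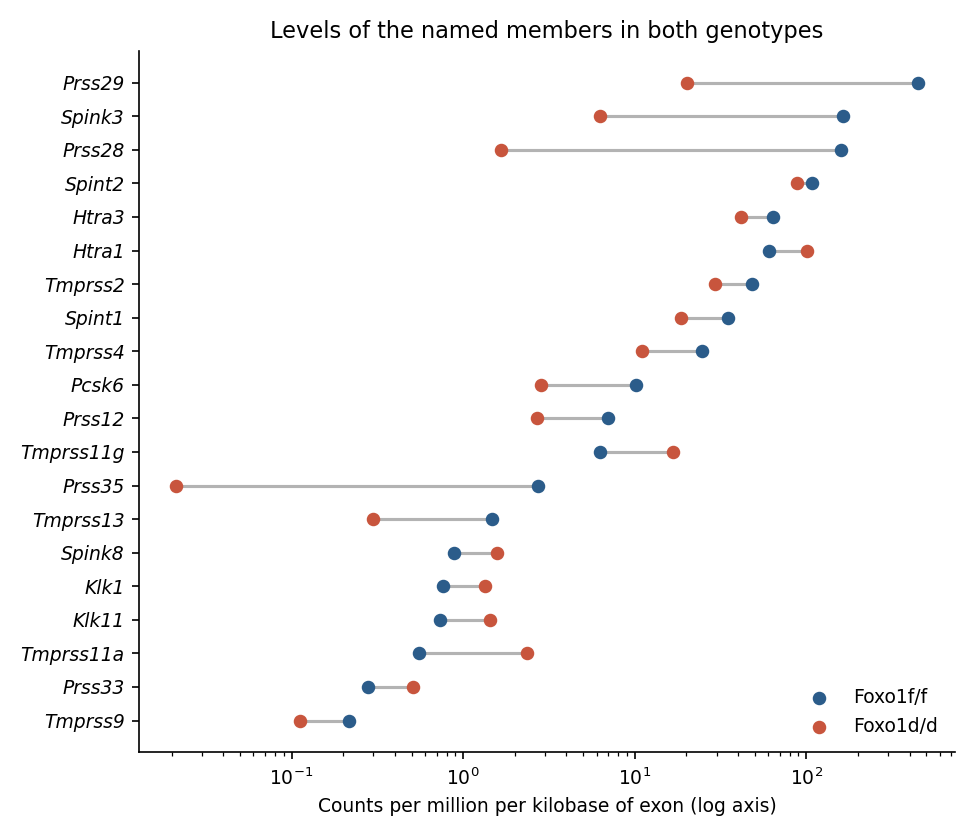
Levels of the 20 named members in Foxo1f/f (blue) and Foxo1d/d (red), in CPM per kilobase of exon on a log axis, ordered by the level in Foxo1f/f. Prss29, Spink3 and Prss28 lead in Foxo1f/f, and Htra1 has the highest level in Foxo1d/d.

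The proprotein convertase genes, whose products cut precursors of hormones, growth factors and adhesion proteins at paired basic residues, included 1 that was at least 2-fold lower. *Pcsk6* (PACE4), a convertase bound to the extracellular matrix, had a mean count in *Foxo1f/f* of 1163 against 343 in *Foxo1d/d*, 3.54-fold lower (3.30 to 3.80). Within 100 kb of *Pcsk6*, the 4 other genes counted had log2 ratios between -1.83 and 0.47. The lowest was 1810008I18Rik, 55.9 kb away, with mean counts of 16 and 4. *Pcsk5*, which encodes a convertase known for its role in decidualization and implantation, had 8809 and 8987, a log2 ratio of -0.03. *Pcsk7* had a log2 ratio of -0.01 and *Pcsk4* of -0.05. Furin, outside the rule for members, had 3163 and 3228. *Pcsk5*, *Pcsk7*, *Pcsk4* and furin thus differed little.

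Of 32 convertase substrates, 28 were counted and 0 were past 2-fold in either direction. Their median log2 ratio was -0.00, and 1 gene, the growth factor receptor gene *Igf1r*, was lower by 1.5-fold, with mean counts of 5393 and 3340 (log2 ratio -0.75). *Inhbb*, which encodes an activin subunit, had the highest ratio of the 28, 0.54. The transcripts of the substrates therefore stayed close to the control level, and processing of their proteins was not measured.

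The HtrA proteases, secreted or mitochondrial enzymes of the protein quality control type, were all 4 counted. *Htra3*, known in the decidua and placenta, had a mean count in *Foxo1f/f* of 5811 against 3914 in *Foxo1d/d*, 1.55-fold lower (1.51 to 1.59). *Htra1*, a secreted protease of extracellular matrix proteins, had 3230 and 5646, 1.68-fold higher (1.63 to 1.72). These secreted paralogs exchanged places. *Htra3* stood above *Htra1* in *Foxo1f/f*, at 64.4 against 60.6 CPM per kilobase, and below it in *Foxo1d/d*, at 41.5 against 101. The mitochondrial *Htra2* had a log2 ratio of 0.21, and 31.0% of its exon bases overlapped those of *Loxl3*, so reads there could be counted for neither or either gene.

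Tissue kallikreins were scarce in these uteri. Of 26 genes in the cluster on chromosome 7, 10 had no count, 23 were under the minimum and 0 of the 3 counted were past 2-fold. *Klk11*, a trypsin-like kallikrein of skin and other epithelia, had mean counts of 28 and 57.3, 1.96-fold higher, with a counting interval of 0.59 to 1.37 for its log2 ratio. *Klk1*, the kinin-releasing kallikrein, had 19 and 35, 1.77-fold higher (1.27 to 2.48). *Klk8*, which shares 27.9% of its exon bases with 2310002F09Rik, had 64.7 and 81.7, with a counting interval of its log2 ratio from -0.00 to 0.55. All 3 were on the higher side, although the interval of *Klk8* includes no difference. *Klk1b27*, named after its values were seen, had mean counts of 2 and 13, 6.23-fold higher (2.62 to 18.0). It belongs to a group of near-identical *Klk1b* copies, so its count is uncertain. Markers of salivary gland or kidney, where *Klk1* is abundant, had a summed level of 10.6 and 9.61 CPM over 4 genes, mostly from *Amy1*, with *Umod* at a mean count of 0.333 in both genotypes.

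Of the 10 mast cell protease genes, 4 were counted, and all 4 were slightly lower. The chymase genes *Cma1*, with mean counts of 255 and 199, and *Mcpt4*, with 264 and 203, had log2 ratios of -0.42 and -0.44. The tryptase genes *Tpsab1*, with 115 and 88, and *Tpsb2*, with 257 and 180, had log2 ratios of -0.44 and -0.57. These are proteases of connective tissue mast cells, and *Mcpt1* and *Mcpt2*, those of mucosal mast cells, were under the minimum. Of 11 mast cell markers outside the rule, all were counted, with a median log2 ratio of -0.26. Of these, 2 were lower and 1 higher by 1.5-fold. The carboxypeptidase gene *Cpa3*, stored in the same granules, had a log2 ratio of -0.31, and *Ms4a2* and *Fcer1a*, which encode IgE receptor subunits, -0.38 and -1.15. Both subunit genes were near the minimum, with mean counts of 15.7 and 12.3 for *Ms4a2* and 20.3 and 9 for *Fcer1a*. The counting interval of *Ms4a2*, -1.07 to 0.25, includes no difference. *Hpgds* was at -0.03, *Slc18a2* at -0.004 and *Gata2* at 0.37. The summed level of the 11 was 437 and 663 CPM, with the most abundant, *Hdc*, at 150 and 364 CPM, and *Hdc* is also expressed in uterine epithelium. Without a spread between pools, a shift of this size in *Cma1*, *Mcpt4*, *Tpsab1* and *Tpsb2* cannot be set against variation between mice, and the part of mast cell number was not tested.

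Other protease systems, in lists also chosen with earlier results known, were described beside the members. Of 45 other serine proteases, 44 were found and 29 counted, of which 3 were at least 2-fold lower and 2 at least 2-fold higher, and the median log2 ratio was -0.01. The lower genes were *Gzmf* and *Gzmg*, granzymes of uterine natural killer cells (-1.23 each), and *Habp2* (-1.12), and the higher genes were *Cfd*, complement factor D (1.86), and *F10*, coagulation factor X (1.14, mean counts 5.67 and 14.3). Of the 6 natural killer cell markers, 0 were past 2-fold, and their summed level was 108 and 134 CPM. Among 22 other inhibitors found in secretions, 21 were found and 17 counted, 2 of them at least 2-fold higher and 0 at least 2-fold lower. The higher genes were *Eppin* (mean counts 5.67 and 23.3) and *Wfdc18* (5.67 and 16.3), and *Slpi*, an inhibitor of neutrophil elastase in mucosal secretions, had 81.7 and 148. Lower by 1.5-fold were *Wfikkn2*, with mean counts of 640 and 334, just short of 2-fold with the pseudocount, and *Spock2*, the most abundant of the list in *Foxo1f/f*, with 8933 and 6127 (log2 ratio -0.61). Of 6 neutrophil markers 2 were counted, and the summed level was 1.75 and 3.57 CPM, mostly from *Mpo*, with *Elane* and *Ngp* at 0 in *Foxo1f/f*. The 4 macrophage markers held 201 and 240 CPM, with *Csf1r* the most abundant.

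Taken over all 119 members, the summed level was 2542 CPM in *Foxo1f/f* against 1585 in *Foxo1d/d*. Without *Prss28*, *Prss29* and *Spink3* the remaining 116 members held 1704 and 1555 CPM. The lower total was thus carried mostly by these 3 genes, which supplied the top levels per kilobase in the controls. In *Foxo1d/d* the leading members per kilobase were *Htra1*, at 101 CPM, and *Spint2*, at 88.7.

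**Figure D5:**
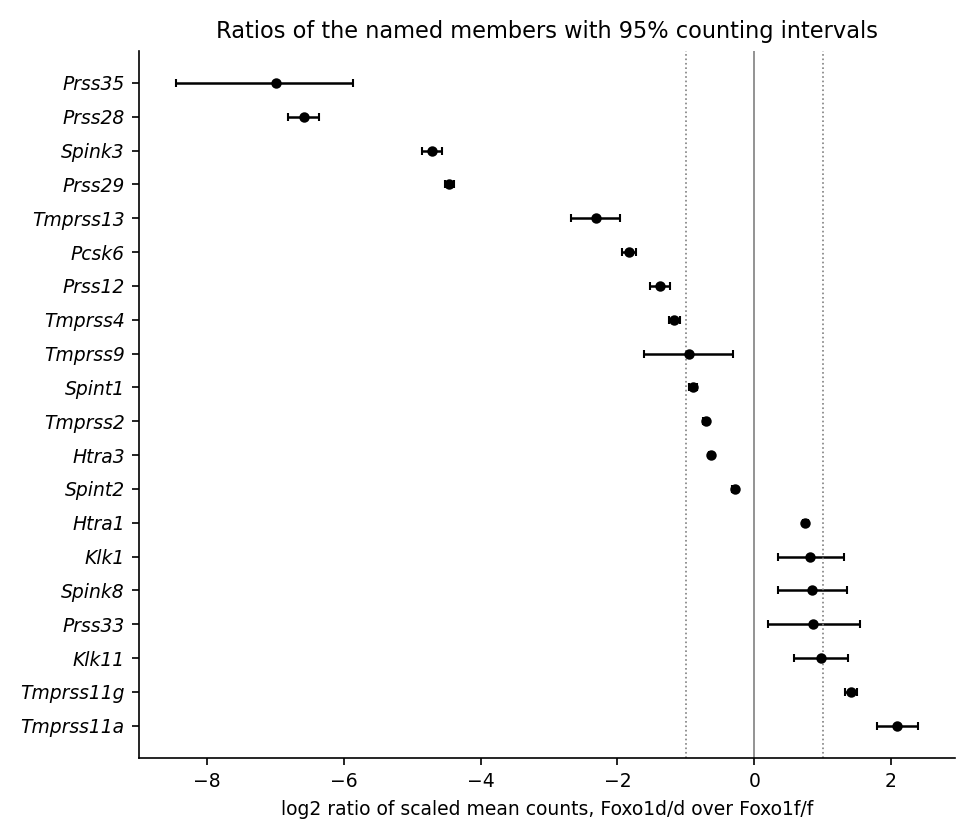
Log2 ratios of the 20 named members without the pseudocount (points) and their 95% exact counting intervals (bars), which hold no spread between pools. Dotted lines mark 2-fold, and the interval of Prss35 is the widest because it rests on 6 counts in Foxo1d/d.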

How the data were processed

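Uterine RNA was made into poly(A)-selected TruSeq libraries. The authors trimmed the paired-end reads and aligned them to mm10 by STAR. The authors took out read duplicates by Picard, assigned reads to RefSeq genes by HTSeq and used edgeR for their comparison of genotypes. Duplicate removal can lower the counts of the most abundant transcripts. Versions, and whether counting used strand, are not given in the sources used here. The authors deposited 1 table of mean raw counts per genotype. All of its mean counts gave whole numbers after multiplication by 3, to within 1.0e-09. Its other columns hold the authors' fold change, log2 CPM, p-value and FDR, which were not used.

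Ratios and Clopper-Pearson intervals were computed with Python 3.11.15, numpy 2.4.6 and scipy 1.17.1 and tested on simulated data. The planned test on single libraries could not be run on mean counts. Members and gene lists were chosen with earlier results of these data known. Named singly were members with a mean count of at least 10 and a difference of at least 1.5-fold, the 5 with the highest level per kilobase in *Foxo1f/f*, *Prss28*, *Prss29* and *Foxo1*. The results for 1 such member and for 2 other genes are not reported here. Promoter windows and transcripts were aligned with Biopython 1.88, and these alignments and the exon overlaps were added after the data were seen. Exon lengths are unions of GENCODE M21 basic exons and were found for all 119 members, 1 of them (*Spink3*) under its RefSeq symbol. RefSeq promoter windows were found for 84 members. The alternatives were other pseudocounts, count minimums, scalings and folds, and *Prss28* and *Prss29* summed.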

Additional observations from a re-analysis of the deposited data

How the results depend on the processing

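The 8 members at least 2-fold lower kept that call with pseudocounts of 0.1 and 5, a minimum mean count of 50, ratios centred on the median gene, upper quartile scaling, and the near bound of the counting interval also required past 2-fold. The 2 higher members did so too. The minimum of 50 could not remove any of them, since the lowest mean count among them was 75.8, that of *Tmprss13*. The number of higher members was 5 with a minimum mean count of 1, 8 with no filter on low counts, 8 at 1.5-fold and 1 at 3-fold, where *Tmprss11a* was left. More genes enter under the lower minimums, and the fold sets the other counts. The number of lower members was 10, 11, 12 and 6 under those settings, and 7 with *Prss28* and *Prss29* summed. At 1.5-fold, 3.51% of all genes counted were lower and 5.45% higher. The shares of all genes were not computed under the lower minimums or at 3-fold. Whether the excess of lower members holds under those settings was therefore not examined. The median log2 ratio ran from -0.35 with a minimum of 50 to -0.06 with no filter. The latter is the value of any gene with equal mean counts in both genotypes. Centring on the median gene moved every ratio by -0.02. No ratio of a named member changed sign, and 1 of 80 moved outside its counting interval, that of *Prss35* with a pseudocount of 5 (-5.22). All named members but *Spint2* stood at 1.5-fold or more, so the small shifts from scaling could not reverse them. None of these settings bears on variation between pools.

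No paired analysis was possible because the table holds 1 mean per genotype, and leaving out single replicates was not run for the same reason. Depth limits the members near the minimum, such as *Prss33* and *Tmprss9*, whose counting intervals are wide, and the 77 members below it.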
